A study of Mus musculus with 90 samples.

Results

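Nnt and 8 antioxidant enzymes were followed through 4 tissues of cold-exposed mice: Nnt, Sod1, Sod2, Gpx1, Gpx4, Prdx3, Prdx5, Txn2 and Txnrd2. These genes were chosen by name, as the mitochondrial pathway that disposes of superoxide and peroxides, and make up 9 of the 32697 gene rows of the deposited count tables. All 9 passed the filter on low counts in every tissue. RNA was sequenced from brown fat (BAT, the heat-producing fat), inguinal white fat (iWAT, fat under the skin in which brown-like cells can form), muscle (gastrocnemius, from the labels) and hypothalamus. The animals were homozygous males of 4 genotypes: wild type (WT), mice without the uncoupling protein UCP1 (UCP1 KO), mice without the hormone FGF21 (FGF21 KO), and mice without either (dKO). All had been raised to weaning at 30 °C, and from 10 to 12 weeks of age they spent 12 days at 18 °C and then 3 weeks at 5 °C; food was taken away 2 to 3 h before tissue was collected. Of the 90 libraries, BAT had 5 of WT, 6 of UCP1 KO, 5 of FGF21 KO and 6 of dKO. For iWAT, as for muscle, these numbers were 6, 6, 5 and 6, and the hypothalamus had 6, 6, 5 and 5. The labels do not say how the knockout alleles were made, give no strain or substrain, and do not tell which libraries of different tissues came from 1 mouse.

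The mitochondrial respiratory chain leaks superoxide, which manganese superoxide dismutase (Sod2) in the matrix and copper-zinc superoxide dismutase (Sod1) in the cytosol and intermembrane space turn into hydrogen peroxide. Peroxides are then reduced along a glutathione route, through the glutathione peroxidases Gpx1 and Gpx4, and along a thioredoxin route, in which the peroxiredoxins Prdx3 and Prdx5 take electrons from thioredoxin 2 (Txn2) and the mitochondrial thioredoxin reductase Txnrd2. Both routes draw on NADPH, and nicotinamide nucleotide transhydrogenase (Nnt), an enzyme of the inner membrane, makes NADPH in the matrix from NADH with the proton gradient that UCP1 dissipates in brown fat. Nnt is also a mark of mouse strain: the substrain C57BL/6J carries a deletion within the gene that C57BL/6N does not.

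Gpx1, Gpx4 and Txnrd2 are selenoproteins: a TGA codon inside the reading frame, a stop codon elsewhere, is read as selenocysteine at the active site. The coding sequence around that codon is shown because these 3 genes stood apart from the other members in BAT. Each sequence is 5′ to 3′ on the coding strand, from the GENCODE annotation of GRCm38, with the TGA in capitals and up to 21 coding bases on either side.
Gpx1: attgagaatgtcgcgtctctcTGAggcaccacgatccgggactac
Gpx4: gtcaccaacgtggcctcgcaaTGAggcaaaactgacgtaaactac
Txnrd2: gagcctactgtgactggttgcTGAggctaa
The TGA is codon 47 of 201 in Gpx1 (chromosome 9, 108339080 to 108340342, plus strand) and codon 73 of 197 in Gpx4 (chromosome 10, 80047166 to 80056439, plus strand). In Txnrd2 (chromosome 16, 18426417 to 18479073, plus strand) it is codon 526 of 527, so that only a glycine codon (ggc) and the stop codon taa follow. Of the annotated coding sequences of the 9 genes, 3 hold such a TGA and 6 do not. The other members lie on chromosome 13 (Nnt, 119335527 to 119409257, minus strand), 16 (Sod1, 90220762 to 90226333, plus), 17 (Sod2, 13007839 to 13018119, plus), 19 (Prdx3, 60864066 to 60874538, minus, and Prdx5, 6906697 to 6910106, minus) and 15 (Txn2, 77915051 to 77928994, minus).

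Libraries held 18.1 to 69.9 M counts (1 M is 1e6), with a median of 46.0 M. Nnt had the fewest counts of the members, 106 to 1389 in BAT and 152 to 1122 in iWAT, and the other members had at least 328 in any library. Ucp1 in BAT stood at 5265 to 8515 CPM (counts per 1e6, here of the library total) in WT and at 1123 to 1494 in UCP1 KO. In iWAT it was at 124 to 1192 in WT and 907 to 1511 in UCP1 KO; counts are per gene and do not show whether the part removed by the knockout was read, so this level does not check the label there. Fgf21 reached at most 0.343 CPM in FGF21 KO and 0.0772 in dKO over all 4 tissues, against 6.41 to 43 in UCP1 KO fat. In WT it was low as well, at 0.151 to 1.41 in BAT, which overlaps FGF21 KO, and 0.222 to 0.713 in iWAT. In muscle and hypothalamus Fgf21 was at most 0.102 in any genotype, so it does not check the labels there. Summed neuronal markers were at 3530 to 3859 CPM in hypothalamus and at most 7.14 elsewhere, and summed fibre markers were at 175652 to 213071 CPM in muscle. Some BAT and iWAT libraries carried muscle RNA, and some iWAT libraries lymphocyte RNA. Their values stand beside the results they touch. Some hypothalamus libraries carried choroid plexus RNA: the summed markers ran from 47.7 to 1837 CPM in that tissue, and 6 libraries were over the limit given below.

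In WT mice, 6 members were highest in BAT, with groups that did not overlap any other tissue: Sod2, Gpx4, Prdx3, Prdx5, Txn2 and Txnrd2. Levels here are CPM scaled across all 90 libraries, mean ± SD, with n = 5 for BAT and n = 6 for the other tissues. The scaling factors over all libraries ran from 0.616 to 1.56, so levels in different tissues depend on this scaling. Txnrd2 fell from 131 in BAT to 38.1 in iWAT, 27.5 in muscle and 10.9 in hypothalamus, each step with an adjusted p of 0.0045 or 0.00584 (exact two-sided permutation test, Benjamini-Hochberg over 27 neighbouring pairs). Gpx4, a peroxidase that reduces peroxides of membrane lipids directly, stood at 1005 ± 102 in BAT and 430 ± 141 in iWAT, where it did not differ beyond its spread from 321 in muscle (adjusted p = 0.135, exact permutation), and at 94.5 in hypothalamus. Sod2 ran from 827 ± 84.2 in BAT through 373 in muscle and 207 in iWAT to 103 in hypothalamus, and Txn2 followed the same order with 334, 204, 115 and 48.2. Prdx3 (632 in BAT) and Prdx5 (256 in BAT) had muscle and iWAT in the middle without a difference beyond their spread, at 261 and 225 for Prdx3 (adjusted p = 0.149) and 133 and 120 for Prdx5 (adjusted p = 0.306), by exact permutation tests. WT iWAT replicates 1 to 4 were over the lymphocyte marker limit given below. Replicates 5 and 6 lay above every muscle library in Gpx4, at 578 and 618 against 291 to 357. The same held for Prdx3 (276 and 311 against 251 to 271) and Prdx5 (157 and 159 against 121 to 145). In Sod2 (262 and 281) and Txn2 (143 in both) they lay below every muscle library. The part of lymphocyte RNA in this was not tested.

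Sod1 and Gpx1 were level between the fat depots within their spread. Sod1 was at 373 ± 31 in BAT and 364 ± 101 in iWAT (adjusted p = 0.714, exact permutation), above 134 in muscle and 101 in hypothalamus. Gpx1 was at 308 ± 90.5 in iWAT and 224 ± 29.9 in BAT (adjusted p = 0.122, exact permutation), above 50.5 in muscle and 28.2 in hypothalamus. Nnt had another order than any other member: muscle was highest at 64.3 ± 8.48, hypothalamus was at 15.5 ± 0.787, and iWAT (9.1 ± 0.91) and BAT (10.2 ± 14.8) did not differ beyond their spread (adjusted p = 0.319, exact permutation). That BAT mean and spread rest on replicate 5, at 36.7, the BAT library highest in muscle fibre markers. The other BAT libraries were at 2.91, 3.94, 4.26 and 3.08, below every iWAT library (8.19 to 10.3). Of the 27 neighbouring pairs, 21 differed and 20 had groups that did not overlap. Scaled within each tissue, which was not made to compare tissues, WT means were higher in hypothalamus than in muscle for some members. These were Sod1 (156 and 88.8 CPM), Gpx1 (43.6 and 33.5) and Prdx5 (126 and 88). The other members kept muscle above hypothalamus, Txnrd2 by the least (18.2 and 16.9).

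In BAT, UCP1 KO libraries held less Gpx1, Gpx4 and Txnrd2 mRNA than WT, and dKO libraries less than FGF21 KO. For these 3 selenoproteins no UCP1-deficient library overlapped its comparison group, in either contrast. In UCP1 KO against WT, 6 of the 9 members were called lower and none higher (edgeR quasi-likelihood F test, Benjamini-Hochberg adjusted p under 0.05 over all genes tested in the tissue). The background was high: 60.1% of the genes tested were called, 29.9% of all tested being lower, and the groups of 39.6% did not overlap, against 3 of the 9 members. The median log2 fold change was -0.28 over the members and -0.02 over all genes tested.

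Gpx1 stood at 165, 207, 212, 225 and 238 CPM in the 5 WT BAT libraries and ran from 85.2 over a median of 109 to 133 in the 6 UCP1 KO libraries. Every knockout library lay below every WT library. The mean fell from 209 ± 27.7 (SD, n = 5) to 110 ± 18.1 (SD, n = 6), a log2 fold change of -0.93 (SE 0.11, edgeR adjusted p = 3.85e-07). The comparison without FGF21 gave much the same size: 156, 182, 184, 201 and 222 CPM in FGF21 KO against 87.2 to 121 with a median of 93.8 in dKO, a log2 fold change of -0.95 (adjusted p = 3.95e-07). Among dKO libraries 1, replicate 4, reached 121 where the other 5 lay between 87.2 and 99.6.

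Gpx4 had 788, 935, 937, 1005 and 1028 CPM in WT and ran from 436 over 487 to 564 in UCP1 KO, again without overlap. Its mean went from 939 ± 93.8 (SD, n = 5) to 497 ± 51.9 (SD, n = 6), a log2 fold change of -0.92 (SE 0.07, edgeR adjusted p = 4.89e-10). In FGF21 KO it stood at 791, 851, 881, 915 and 919 CPM and in dKO between 436 and 491 with a median of 472, a log2 fold change of -0.89 (adjusted p = 9.63e-10). Txnrd2, which keeps Txn2 reduced, had 99.6, 112, 119, 132 and 148 CPM in WT and 58.4 to 85.5 with a median of 77.6 in UCP1 KO. Its log2 fold change was -0.72 (SE 0.09, adjusted p = 4.81e-07), and -0.56 (adjusted p = 1.43e-05) in dKO against FGF21 KO, where levels were 116, 118, 125, 128 and 132 against 78.7 to 91.1.

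**Figure D1:**
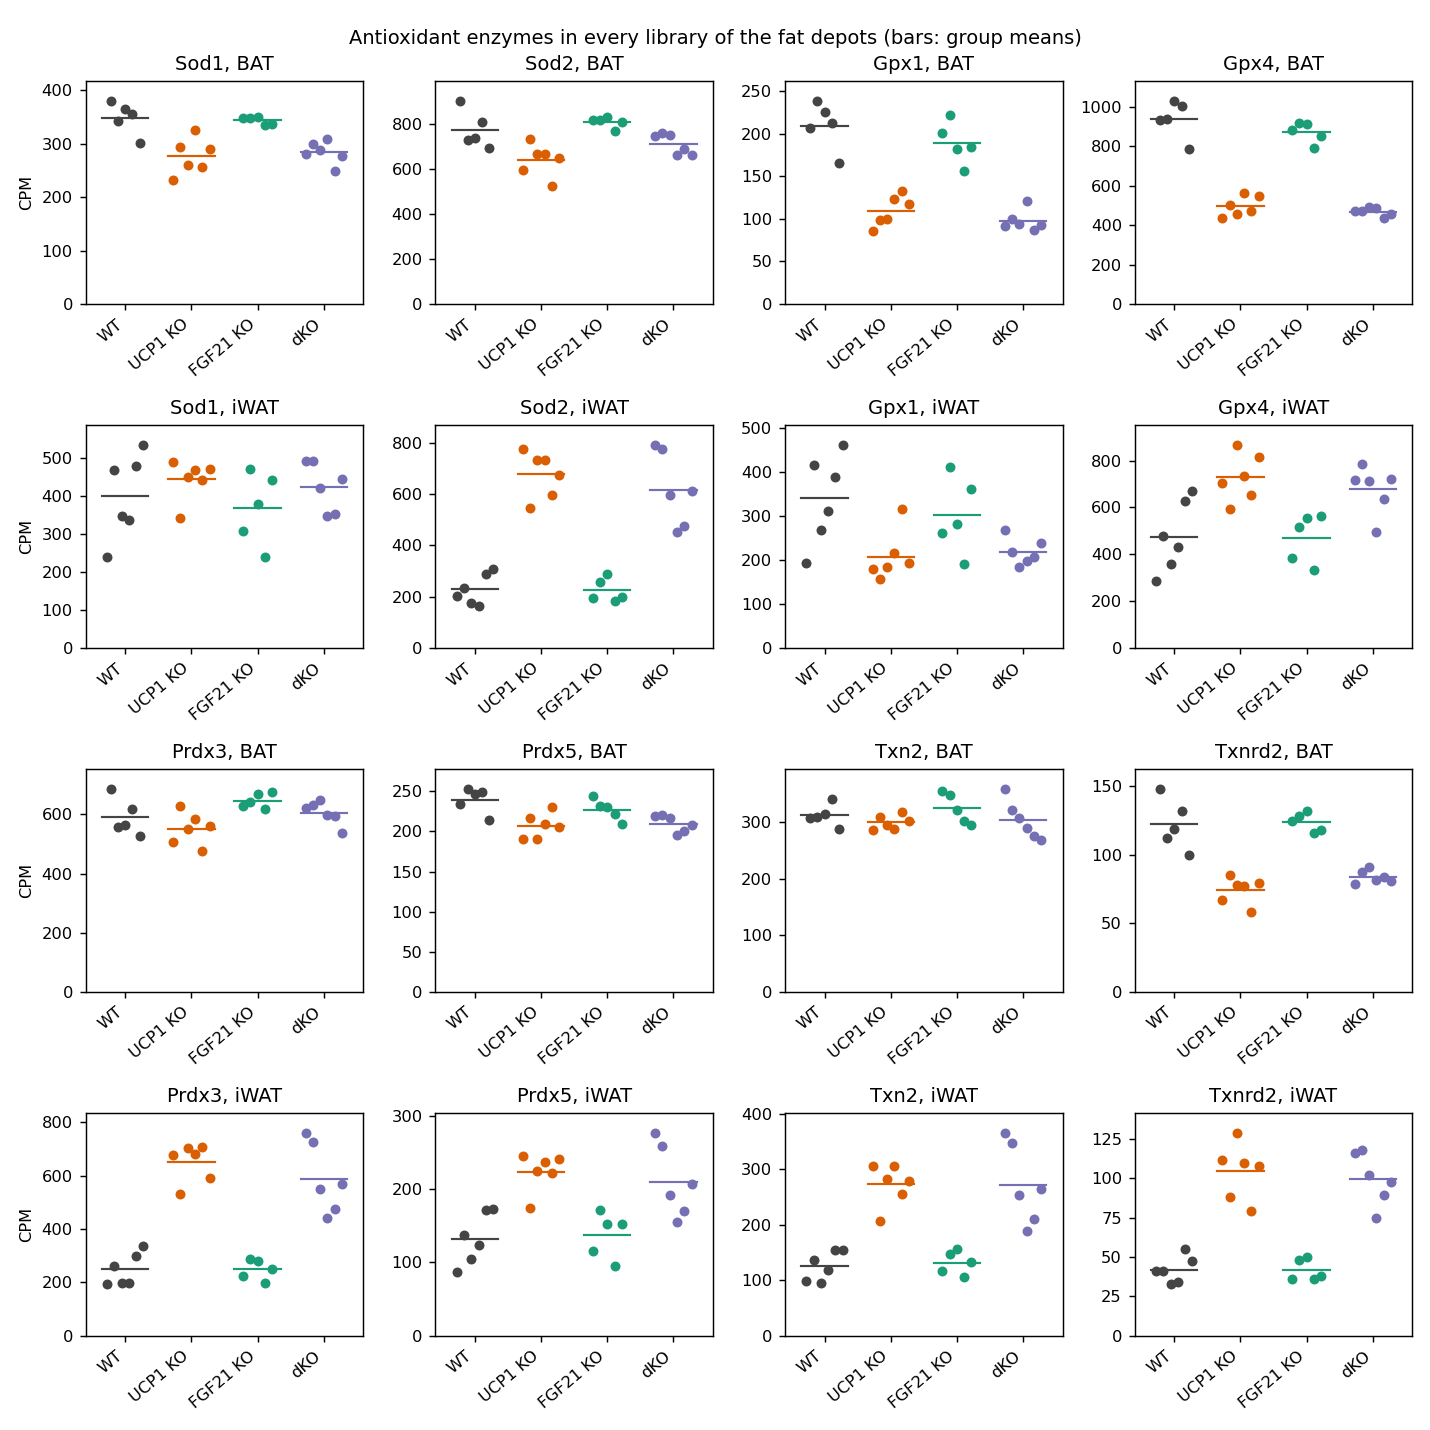
CPM of the 8 antioxidant enzymes in every BAT and iWAT library by genotype, on linear axes from 0; points are libraries and short bars are group means. In BAT the UCP1 KO and dKO libraries of Gpx1, Gpx4 and Txnrd2 lie below all WT and FGF21 KO libraries, and in iWAT those of Sod2, Prdx3, Txn2 and Txnrd2 lie above.

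The dismutases and Prdx5 differed less in BAT and depended on the scaling. Sod2 was at 692 to 899 CPM in WT and 522 to 734 in UCP1 KO (log2 fold change -0.28, SE 0.08, edgeR adjusted p = 0.00298), Sod1 at 301 to 379 and 232 to 325 (-0.34, SE 0.07, 0.000473), and Prdx5 at 214 to 253 and 190 to 230 (-0.21, SE 0.06, 0.00346); all 3 groups overlapped. Prdx3 (-0.10, adjusted p = 0.251), Txn2 (-0.06, 0.492) and Nnt (-0.06, 0.94) were not called. For Nnt the 95% interval of the log2 difference ran from -1.36 to 1.23, so that a change of that size in either direction was not detectable. This value rests on WT replicate 5, the BAT library highest in muscle fibre markers: without it Nnt was higher in UCP1 KO by 1.45 (adjusted p = 0.0209). In dKO against FGF21 KO 5 members were called lower and none higher, where 57.2% of all genes were called (28% of all being lower) and the groups of 41.4% did not overlap: Sod1 (-0.27, 0.00321) and Sod2 (-0.18, 0.0438) joined the 3 selenoproteins, and none of the 5 overlapped. Sod2 lost that call without UCP1 KO replicate 6, without dKO replicate 4, 5 or 6 and without FGF21 KO replicate 1, 2, 3 or 5 (adjusted p 0.0504 to 0.0903). In bulk tissue, fewer cells of a type and less RNA per cell cannot be told apart.

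TMM scaling assumes that most genes keep their level. Scaled by library totals instead, an alternative chosen after seeing the data, the median of all genes in BAT moved from -0.02 to 0.41 in UCP1 KO against WT and from -0.01 to 0.37 in dKO against FGF21 KO. The share of called genes that were higher went from 50.2% to 87.6% and from 51.2% to 87.2%. Sod1, Sod2, Prdx3, Prdx5 and Txn2 then changed sign, to between 0.09 (Sod1) and 0.38 (Txn2) in UCP1 KO and between 0.10 (Sod1) and 0.29 (Prdx3) in dKO. Gpx1 (-0.50 and -0.57), Gpx4 (-0.49 and -0.51) and Txnrd2 (-0.28 and -0.18) remained called lower under both scalings, with adjusted p of at most 0.0275. Against 45 nuclear genes of the respiratory chain in the same library, a ratio also added after seeing the data and not tested, Gpx4 (-0.55) and Txnrd2 (-0.34) lay below all WT libraries, Gpx1 fell on average (-0.57) with overlap, and Prdx3 (0.27) and Txn2 (0.31) lay above all of them. For that ratio the median of all genes was 0.36, and the groups of 47.8% did not overlap, 5.35% of all genes being on the lower side. For dKO against FGF21 KO, Gpx1 (-0.68), Gpx4 (-0.63) and Txnrd2 (-0.30) lay below all FGF21 KO libraries and Sod2 (0.08) and Prdx5 (0.14) above them, with a median of all genes of 0.26, 44.1% without overlap and 6.7% on the lower side.

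**Figure D2:**
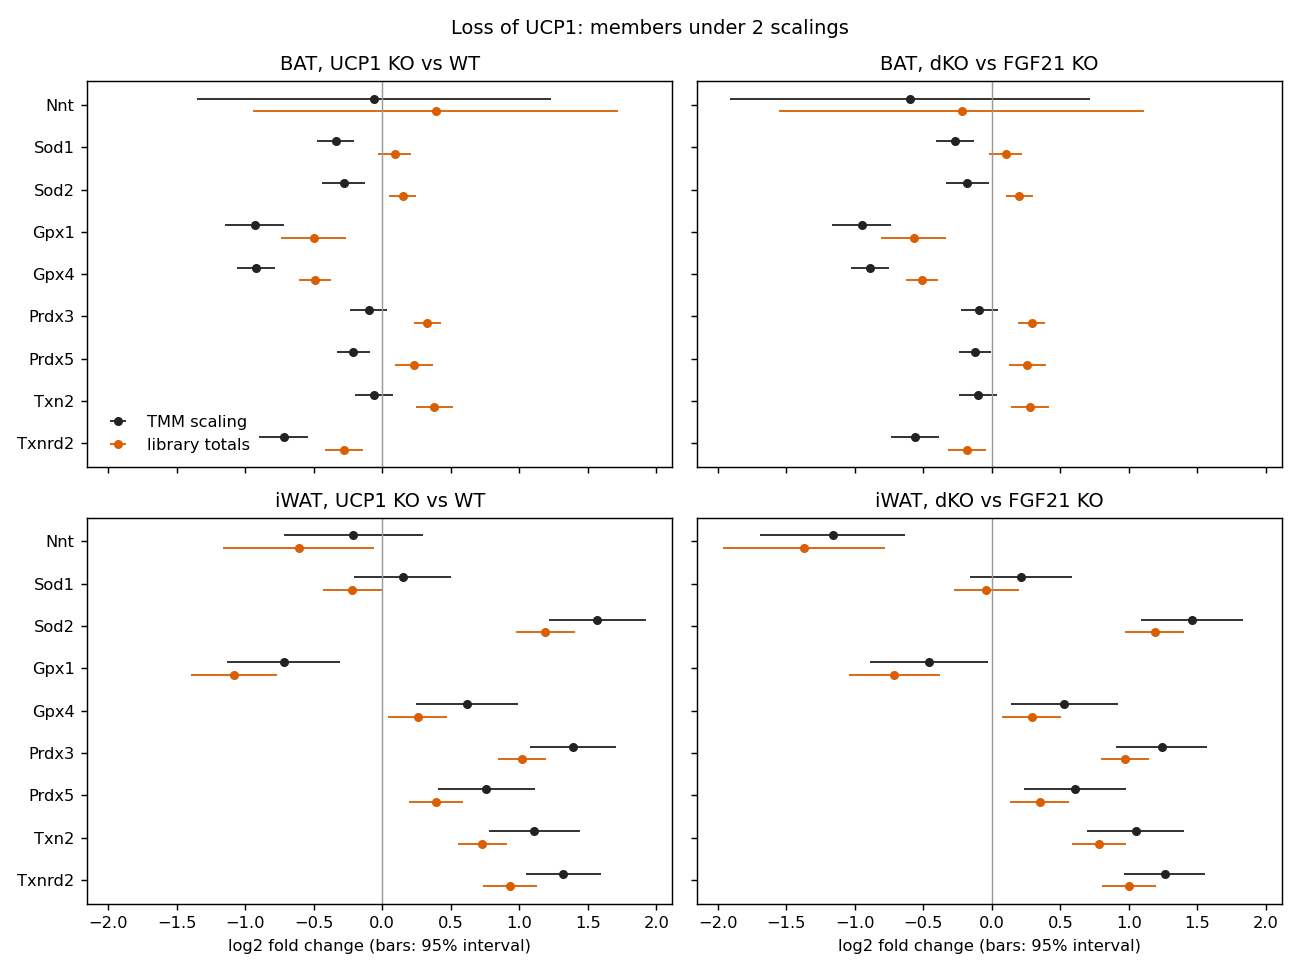
log2 fold change of each of the 9 genes in BAT and iWAT in UCP1 KO against WT and dKO against FGF21 KO, under TMM scaling and under library totals; points are estimates and bars their 95% intervals. In BAT, Gpx1, Gpx4 and Txnrd2 are below 0 under both scalings, while Sod1, Sod2, Prdx3, Prdx5 and Txn2 change sign.

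Other genes of the pathway moved both ways in UCP1 KO BAT. The respiratory chain list had 37 of 45 genes lower and 0 higher (median log2 fold change -0.35; Sdha of complex II -0.71, edgeR adjusted p = 5.02e-10), under TMM scaling. Of 18 cytosolic and secreted antioxidant enzymes 7 rose and 6 fell: Txnrd1, the cytosolic thioredoxin reductase and itself a selenoprotein, rose by 0.64 (adjusted p = 7.07e-09) and Gpx8 of the endoplasmic reticulum was at -1.03 (1.32e-05). Of 9 genes that supply glutathione 5 rose and 1 fell, led by glutathione synthetase Gss (1.71, 4.77e-11), and glutathione reductase Gsr was at -0.17 (0.0383). Among 9 genes that make mitochondrial NADPH, Nnt included, 3 rose and 4 fell. Mthfd2 of the mitochondrial folate cycle went from 3.97 ± 1.53 CPM in WT (SD, n = 5) to 72.9 ± 9.7 in UCP1 KO (SD, n = 6), log2 fold change 4.20 (adjusted p = 3.87e-12), and Me3, a mitochondrial malic enzyme, was at -1.21. Of 8 mitochondrial redoxins and repair enzymes, a list that holds the members Prdx3, Prdx5, Txn2 and Txnrd2, 2 rose and 4 fell; Glrx5 was at 0.52 and Glrx2 at -0.60, and Prdx5 and Txnrd2 are among those that fell. Of 6 genes for selenoprotein synthesis 1 rose and 3 fell. Eefsec, the elongation factor for selenocysteine, was at 0.98 and Sephs2, which makes the selenium donor, at -0.47.

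Macrophage markers rose in the same BAT libraries, 9 of 10 being called higher. Their summed level was 145 to 195 CPM in WT, 732 to 1234 in UCP1 KO, 138 to 292 in FGF21 KO and 512 to 751 in dKO. Of 8 brown adipocyte markers, Ucp1 among them, 4 were higher and 4 lower. The part of these cells in the members' levels was not tested.

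In iWAT the direction was the other way: most mitochondrial members rose when UCP1 was absent. In UCP1 KO against WT 6 of the 9 were called higher and Gpx1 alone lower, where 46.3% of all genes were called (22.3% higher and 24% lower) and 22.3% had groups that did not overlap, against 5 members. The members' median was 0.76 and that of all genes tested -0.13. In dKO against FGF21 KO 6 were higher and 1 lower (37.3% of all genes called, 16.8% higher and 20.5% lower), 4 of them without overlap (17.3% of all genes), with medians of 0.61 and -0.15.

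Sod2 had the largest increase of the members in both contrasts. It ran from 164 over a median of 220 to 306 CPM in WT and from 546 over 702 to 776 in UCP1 KO, so that the groups were far apart. The mean rose from 228 ± 58.5 to 676 ± 89 (SD, n = 6 each), a log2 fold change of 1.57 (SE 0.18, edgeR adjusted p = 6.7e-07). FGF21 KO libraries stood at 183, 196, 198, 256 and 289 CPM, all below the dKO range of 450 to 790 with a median of 604, a log2 fold change of 1.46 (SE 0.19, 7.29e-06). WT replicates 1 to 4, over the lymphocyte marker limit given below, held less Sod2 than WT replicates 5 and 6. Scaled across all 90 libraries, they stood at 188, 207, 156 and 146 CPM, against 262 and 281. The part of lymphocyte RNA in that difference was not tested.

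The thioredoxin route rose together. Prdx3, the main peroxiredoxin of the matrix, ran from 193 over 230 to 338 CPM in WT and from 532 over 681 to 709 in UCP1 KO (log2 fold change 1.39, SE 0.16, edgeR adjusted p = 9.36e-07), and from 199, 223, 251, 280 and 289 in FGF21 KO to between 441 and 761 in dKO (1.24, 1.39e-05). Txnrd2 ran from 32.7 over 41.1 to 55.2 CPM in WT and from 79.3 over 109 to 129 in UCP1 KO (1.32, SE 0.14, 4.61e-07), with 1.26 (3.54e-06) for dKO against FGF21 KO, while Txn2 went from 95.5 to 155 in WT to 207 to 307 in UCP1 KO (1.11, SE 0.17, 1.92e-05), with 1.05 (0.000117) in dKO. None of these groups overlapped. Prdx5 followed with 0.76 (SE 0.18, 0.00172) in UCP1 KO, without overlap (86.4 to 173 against 174 to 245 CPM), and 0.61 (0.0151) in dKO, with overlap. WT replicates 1 to 4, high in lymphocyte markers, were lower than WT replicates 5 and 6 in each of these genes. For Prdx3, scaled across all 90 libraries, they stood at 179, 230, 178 and 177 CPM, against 276 and 311.

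The glutathione peroxidases parted in iWAT. Gpx4 was at 284 to 672 CPM in WT and 593 to 866 in UCP1 KO (log2 fold change 0.62, SE 0.19, edgeR adjusted p = 0.00987), and in dKO at 0.53 (0.0376), a call lost without dKO replicate 1, 2, 3 or 6 or FGF21 KO replicate 1 (adjusted p 0.062 to 0.0923). Gpx1 went the other way, from 194 over 350 to 461 CPM in WT to 157 over 188 to 316 in UCP1 KO, with overlapping groups and a log2 fold change of -0.72 (SE 0.21, 0.00766). In dKO against FGF21 KO it was at -0.46 (0.0979) and not called; under library totals it was called lower in both contrasts, at -1.08 (1.3e-05) and -0.71 (0.00182). The summed lymphocyte markers ran from 6.97 to 2426 CPM over iWAT libraries and were low in some and high in others of every genotype. Their medians were 710 CPM in WT, 89 in UCP1 KO, 49.5 in FGF21 KO and 211 in dKO. Without the 12 libraries highest in them, Gpx1 was at -1.13 (0.000238) and -0.45 (0.0169) and Gpx4 at 0.36 (0.0318) and 0.53 (0.00216). That fit lacked WT replicates 1 to 4, UCP1 KO replicates 2, 4 and 5, dKO replicates 3 to 5 and FGF21 KO replicates 1 and 4. It thus rests on few libraries, in WT most of all. With lymphocyte and fibre markers as covariates Gpx1 was called lower in dKO as well (-0.54, 0.0218). Sod1 was not called (0.15, adjusted p = 0.513, and 0.21, 0.403) and stood at -0.22 and -0.04 under library totals. Under library totals the median of all genes fell to -0.53 and -0.41, and the share of called genes that were higher went from 48.2% to 18.6% and from 45% to 22.1%. On that scale Sod2 (1.19 in both), Prdx3 (1.02 and 0.97), Txnrd2 (0.93 in UCP1 KO) and Txn2 (0.73 and 0.78) stayed higher. Prdx5 (0.39 and 0.35) and Gpx4 (0.26, adjusted p = 0.0402, and 0.29, 0.0412) were still called, at smaller values.

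Nnt did not rise with the other members in iWAT. In WT it ran from 9.18 to 11.5 CPM and in UCP1 KO from 4.56 over 7.49 to 14, a log2 fold change of -0.21 that was not called (edgeR adjusted p = 0.523). FGF21 KO libraries were at 11.1, 15.1, 17.4, 21.1 and 21.9 CPM and dKO at 5.15 over 7.05 to 11.7, a log2 fold change of -1.16 (SE 0.27, 0.00228) with overlap between 1 FGF21 KO library and the highest dKO library. In the same contrast 11 of 12 muscle fibre markers were lower, with a median of -6.85. The summed markers were at 69160 and 3058 CPM in FGF21 KO replicates 3 and 5 and at 92.8 to 242 in the other libraries of that group. The group medians were 242 in FGF21 KO and 137 in dKO. Without the 4 iWAT libraries highest in fibre markers Nnt was at -0.91 (0.0386), and without the 12 highest in lymphocyte markers at -1.40 (0.0157), both alternatives being chosen after seeing the data.

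The respiratory chain rose in iWAT with the matrix enzymes. In UCP1 KO 43 of 45 chain genes were higher and 1 lower (median 1.26; cytochrome c, Cycs, 1.88), and in dKO against FGF21 KO 44 and 1 (median 1.14). Set against these genes in the same library, without a test, Sod2 lay above all WT libraries (0.37) and above all FGF21 KO libraries (0.35). Sod1 (-1.04 and -0.86), Gpx1 (-1.92 and -1.52), Gpx4 (-0.55 in both), Prdx5 (-0.43 and -0.49) and Nnt (-1.55 and -2.21) lay below them. Prdx3 (0.19), Txn2 (-0.10) and Txnrd2 (0.09) overlapped WT. The median of all genes for this ratio was -1.32 and -1.20, the groups of 72.8% and 66.6% did not overlap, and 1.23% and 1.31% of all genes lay on the higher side.

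Of the other lists, 7 of 8 mitochondrial redoxins and repair enzymes rose in both contrasts (medians 1.13 and 0.98), but 4 of these 7 are the members Prdx3, Prdx5, Txn2 and Txnrd2. Higher too were 4 and 3 of 6 genes for selenoprotein synthesis (Sepsecs 0.54 and 0.50). Cytosolic and secreted enzymes had 9 of 18 higher and 3 lower in UCP1 KO, with sulfiredoxin Srxn1, which repairs overoxidised peroxiredoxins, at 2.26 (edgeR adjusted p = 2.06e-08) and Prdx4 of the endoplasmic reticulum at -0.50. Of the NADPH genes 5 rose and 1 fell (Mthfd2 2.14, Me2 -0.69), and of the glutathione genes 4 rose and 1 fell. Of 8 brown adipocyte markers 6 rose in each contrast, and Adrb3, the adrenergic receptor of fat cells, was lower in UCP1 KO (-0.84, adjusted p = 0.0175); their summed level was 1025 to 2774 CPM in WT, 4659 to 6913 in UCP1 KO, 920 to 2100 in FGF21 KO and 4163 to 6760 in dKO. Macrophage markers were lower for 8 of 10 in UCP1 KO and for 3 of 10 in dKO, and no lymphocyte marker was called. Their part in the members' levels was not tested.

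The difference between the depots was tested in 1 fit over both. The effect of UCP1 loss was higher in iWAT than in BAT for 7 of the 9 members in UCP1 KO against WT, where 52.6% of all genes differed (27.7% higher), and for the same number in dKO against FGF21 KO, where 42.3% did (22.3% higher). Txnrd2 differed most, by 2.09 (edgeR adjusted p = 4.6e-12) and 1.89 (1.97e-10) on the log2 scale, followed by Sod2 (1.91 and 1.71), Gpx4 (1.60 and 1.49) and Prdx3 (1.55 and 1.40). Gpx1 (0.28, adjusted p = 0.339, and 0.56, 0.0676) and Nnt (-0.08, 0.934, and -0.50, 0.595) did not pass. Under library totals, where the share of called differences that were higher went from 52.5% to 10% and from 52.8% to 10.6%, Txnrd2 (1.21 and 1.18), Sod2 (1.04 in UCP1 KO), Gpx4 (0.75 and 0.80), Prdx3 (0.68 and 0.69) and Txn2 (0.35 and 0.50) held, whereas Prdx5 was at 0.16 and 0.09 without a call and Sod1 turned to -0.32 and -0.15.

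Muscle showed small increases without UCP1. Prdx3 rose from 166 to 177 CPM in WT to 184 to 203 in UCP1 KO, with no overlap and a log2 fold change of 0.17 (SE 0.03, edgeR adjusted p = 0.00228), and from 169 to 172 in FGF21 KO to 183 to 208 in dKO (0.20, 0.0017), again without overlap. In UCP1 KO against WT 2 of the 9 members were called higher (12.3% of all genes called, 5.89% higher), Prdx3 and Nnt, and 1 had groups without overlap (3.68% of all genes). For dKO against FGF21 KO 3 were called higher (7.76% of all genes called, 3.63% higher): Prdx3, Gpx1 (0.26, 0.0237, 29.2 to 33.1 against 34.5 to 39.5 CPM) and Txn2 (0.18, 0.0307, with overlap). Without dKO replicate 6 or FGF21 KO replicate 3, 4 or 5, neither Gpx1 nor Txn2 kept its call; Gpx1 also lost it without dKO replicate 5, and Txn2 without dKO replicate 1 or 2 or FGF21 KO replicate 2, with adjusted p from 0.0512 to 0.0887. Sod2 (0.15, 0.053) had groups apart but was not called, so that 3 members had no overlap, against 7.73% of all genes. The same members were at 0.20 (Gpx1, 0.0516), 0.14 (Txn2, 0.0589) and 0.11 (Sod2, 0.107) in UCP1 KO against WT. Of 45 chain genes, 14 and 15 were higher in the 2 contrasts, with Uqcrc2 at 0.21 and Ndufa10 at 0.19.

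Nnt in muscle separated libraries more than genotypes. WT libraries lay between 35.8 and 52.2 CPM. UCP1 KO libraries were at 50.4 at the lowest, 96 at the median and 209 at the highest, FGF21 KO at 39.4, 86.9, 97.2, 103 and 111, and dKO at 40.5, 81.7 and 124. Each knockout group thus held libraries in the WT range and libraries far above it. The log2 fold change of UCP1 KO against WT was 1.35 (SE 0.37, edgeR adjusted p = 0.0235), a call that was lost when the 2 groups were fitted alone (0.0518), without WT replicate 4 (1.31, 0.0515) and without UCP1 KO replicate 5 (1.06, 0.0614). For dKO against FGF21 KO the value was -0.11 (0.906).

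In hypothalamus no member was called for UCP1 loss by edgeR or DESeq2. At an unadjusted p under 0.05 edgeR gave 2 in UCP1 KO against WT, Nnt (0.37) and Gpx1 (0.09), and 0 in dKO against FGF21 KO; 0.0555% of all genes were called in either. The spread was narrow for all members but Nnt: Sod2, for example, lay between 151 and 172 CPM in all 22 libraries. Nnt fell into separate levels. All 6 WT libraries were at 21.8 to 25.1 CPM, with 3 of 6 UCP1 KO, 1 of 5 FGF21 KO and 3 of 5 dKO libraries, and the other 9 libraries of the knockouts were at 32.3 to 43.9. By order of deposit, UCP1 KO replicates 1, 5 and 6 were the highest of their group in Nnt here and in muscle. The same replicates were the highest in iWAT (7.56, 14 and 14 CPM, with replicate 2 close at 7.43) and in BAT (22.5, 7.49 and 10.7). FGF21 KO replicate 4 was the lowest of its group in hypothalamus, muscle and iWAT (11.1 in iWAT), but the highest in BAT (17.7).

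Loss of FGF21 moved no member past the threshold. In FGF21 KO against WT, in dKO against UCP1 KO and in the interaction of both knockouts, 0 of 9 members were called in each of the 4 tissues by edgeR and by DESeq2. The background was as low: for BAT, iWAT, muscle and hypothalamus in this order, 0.025%, 0.00597%, 0.0198% and 0.00555% of all genes were called in FGF21 KO against WT, 1.73%, 0.0358%, 0% and 0.0111% in dKO against UCP1 KO, and 0% in each interaction. At an unadjusted p under 0.05 FGF21 KO against WT had 0, 1, 1 and 1 member, dKO against UCP1 KO 1, 0, 0 and 1, and the interaction 0, 1, 1 and 1. In FGF21 KO against WT and in the interaction that member was Nnt in every case. It was higher in FGF21 KO than in WT by 0.79 in iWAT (95% interval 0.26 to 1.32), 1.03 in muscle (0.28 to 1.79) and 0.38 in hypothalamus (0.03 to 0.73), and the interaction was -0.95, -1.47 and -0.54.

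**Figure D3:**
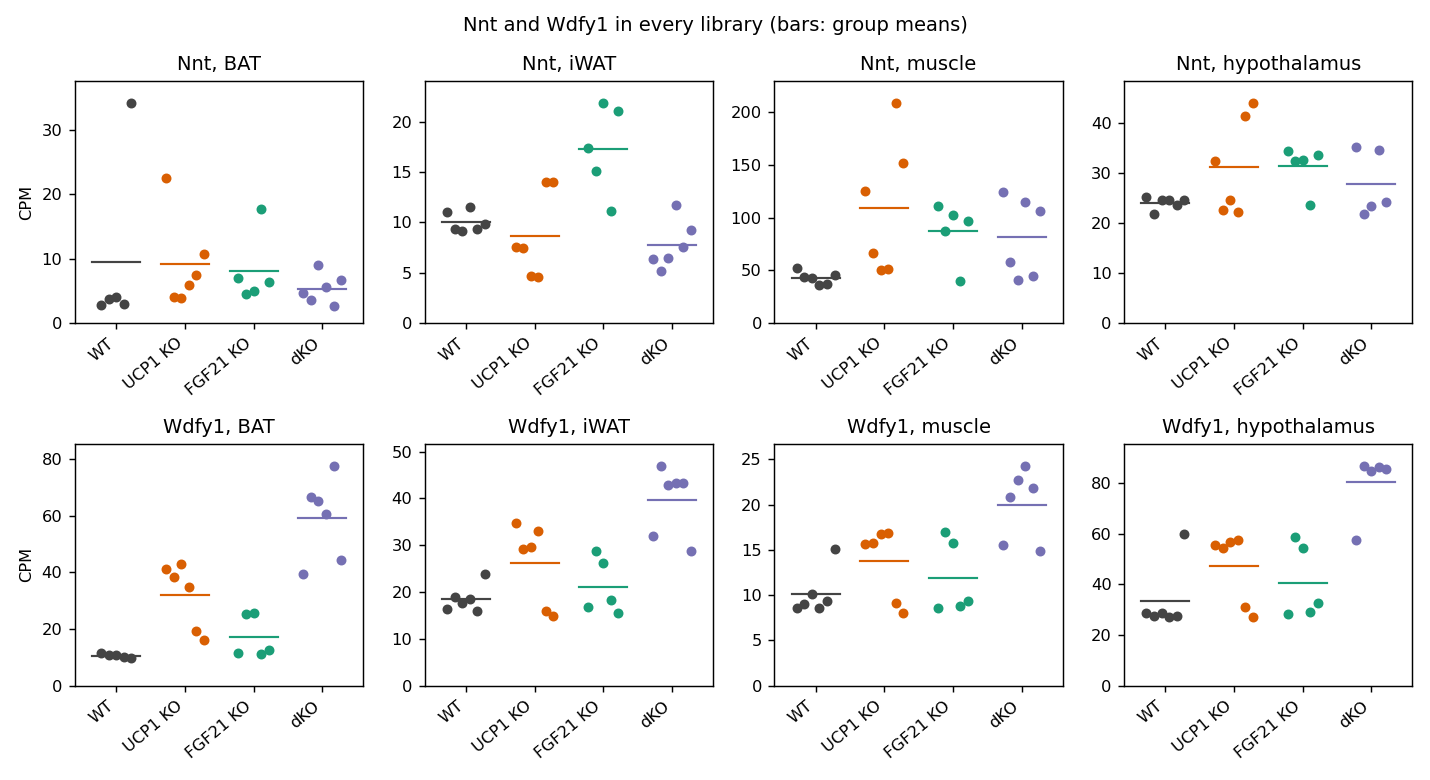
CPM of Nnt and of Wdfy1 in every library by tissue and genotype, on linear axes from 0; each point is a library and short bars are group means. Nnt in WT muscle and hypothalamus is narrow while the knockout groups hold low and high libraries, and Wdfy1 in hypothalamus falls into 3 levels, the highest of dKO libraries alone.

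Pooled over the groups of a tissue, the spread of Nnt between libraries was larger than that of any other member. On the log2 scale its pooled standard deviation within groups was 0.953 (BAT), 0.445 (iWAT), 0.65 (muscle) and 0.296 (hypothalamus), against medians over all genes tested of 0.16, 0.245, 0.131 and 0.107. Those values stand at percentiles 98.2, 84.2, 99.8 and 96.4 of all genes tested, and the other members lay between percentiles 3.3 and 77.2. Single groups could differ: in WT iWAT the highest Nnt library was 1.26 times the lowest, less than for any other member (1.63 to 2.38 times), and in FGF21 KO iWAT Gpx1 (2.15 times) ranged wider than Nnt (1.97 times). Since exons were counted together, a deletion within Nnt and a lower level cannot be told apart.

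Wdfy1 and Entpd4, genes reported to differ between C57BL/6 substrains, were looked at beside Nnt. Wdfy1 (chromosome 1, 79702262 to 79776143) was at 3 levels in hypothalamus: 10 libraries at 27.2 to 32.8 CPM, 8 at 54.5 to 60.1 and 4 at 85 to 86.9. The low level held 5 WT, 2 UCP1 KO and 3 FGF21 KO libraries, the middle level 1 WT, 4 UCP1 KO, 2 FGF21 KO and 1 dKO, and the highest dKO libraries alone. In muscle the low level, 8.01 to 10.1 CPM, held the same numbers of libraries of each genotype, and 13 libraries were at 14.9 to 24.3, all 6 dKO among them. By order of deposit, UCP1 KO replicates 5 and 6 were the lowest of their group in all 4 tissues (19.3 and 16.2 CPM in BAT, 16 and 14.8 in iWAT). FGF21 KO replicates 2 and 3 were the highest of theirs in all 4 (25.4 and 25.6 in BAT, 28.7 and 26.2 in iWAT). The labels do not say whether libraries of 1 replicate number came from 1 mouse. Nnt and Wdfy1 did not mark the same libraries: in hypothalamus UCP1 KO replicates 5 and 6 were highest in Nnt (41.3 and 43.9 CPM) and lowest in Wdfy1 (31.1 and 27.2), and FGF21 KO replicate 1 was high in Nnt (34.4) and low in Wdfy1 (28.3). Wdfy1 was called higher in BAT of UCP1 KO (1.60, edgeR adjusted p = 7.69e-05) and of dKO against FGF21 KO (1.78, 2.87e-05), and in iWAT of dKO against FGF21 KO (0.90, 0.00293). Entpd4 was called in iWAT of UCP1 KO (2.36, 1.14e-05), at 0.398 to 1.37 CPM in WT and 2.53 to 5.65 in UCP1 KO. The strain of each animal is not given, and differences between genotypes and between strain backgrounds cannot be told apart where both run together.

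Genes near Nnt were compared with the background of their tissue. Of the 35 gene rows within 5 Mb, 13 of 20 tested were called in BAT of UCP1 KO (65% against 60.1%), 14 of 22 in iWAT (63.6% against 46.3%), 0 of 21 in muscle (12.3% of all genes) and 0 of 20 in hypothalamus (0.0555%). For dKO against FGF21 KO the numbers were 10 of 20 (50% against 57.2%), 9 of 22 (40.9% against 37.3%), 1 of 21 (Mrps30 at 0.19, 4.76% against 7.76%) and 0 of 20 (0.0555% of all genes). Over the 45 muscle and hypothalamus libraries, after removal of group means, the genes with the highest correlation with Nnt among 11630 were Zfp703 (r = 0.65), 2810001G20Rik (0.64) and Tango2 (0.64), and those with the lowest were Setd8 (-0.64), AK039132 (-0.63) and Gm7120 (-0.63); this choice of tissues was made after seeing the data. Gm7120 (now Tmem267) lies 78.8 kb from Nnt on chromosome 13, from 119488086 to 119610459. In muscle it stood at 7.42, 7.44, 7.52 and 12.2 CPM in the 4 FGF21 KO libraries high in Nnt and at 13.1 in the low one. In UCP1 KO it was at 8.64, 9.34 and 7.19 in replicates 1, 5 and 6, high in Nnt, and at 15, 15.4 and 16.6 in the others. In dKO the values overlapped, at 12.4, 9.96 and 17.2 in replicates 1, 4 and 6, high in Nnt, and 16.4, 15.3 and 12.7 in the others. Over all 90 libraries its correlation with Nnt after removal of group means was -0.25, and other neighbours went the other way (Paip1 0.31, Parp8 0.25). The other members correlated with Nnt between -0.23 (Sod2) and 0.32 (Gpx1) in those libraries, which are of 2 tissues and differ in depth.

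Over all 90 libraries, after removal of group means, the genes most like Nnt among 11231 were Tpm3 (r = 0.71), Casq2 (0.71) and Pdlim5 (0.69), and those least like it Itpr1 (-0.52), Zfp934 (-0.51) and M6pr (-0.50). Tpm3 is a tropomyosin and Casq2 a calsequestrin of muscle. The other members lay between -0.30 (Txnrd2) and -0.04 (Gpx1). Over the 16 group means Myoc (0.98), Atp5g1 (0.98) and Prkcq (0.97) were nearest.

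In BAT, the 3 libraries with the most muscle RNA had the most Nnt. There, the 12 summed fibre markers ran from 101 to 26969 CPM, and the WT library with the highest level, replicate 5, had 34.2 CPM of Nnt where the other 4 WT libraries had 2.74 to 3.96. UCP1 KO replicate 1 had 9481 CPM of fibre markers and 22.5 of Nnt, FGF21 KO replicate 4 had 11095 and 17.7, and dKO replicate 3 had 6017 and 8.97. Other BAT libraries did not keep this order. UCP1 KO replicate 6 had 1537 and 10.7 and replicate 5 had 126 and 7.49, while UCP1 KO replicate 4 had 4699 and 5.93 and WT replicate 2 had 3051 and 3.67. Muscle was the tissue with the highest Nnt level in WT. The BAT log2 fold change of Nnt in UCP1 KO was 1.03 without the 8 libraries high in fibre markers (edgeR adjusted p = 0.0274), and with the markers as a covariate 0.57 (0.308). In iWAT the 2 did not run together in this way. The highest fibre sum, 69160 CPM, was in FGF21 KO replicate 3 with 21.9 CPM of Nnt, but FGF21 KO replicate 5 had 21.1 of Nnt at 3058 CPM of fibre markers. WT replicate 4 had 11.5 of Nnt at 16597, close to the 11 of WT replicate 1 at 132, and UCP1 KO replicate 2 had 7.43 at 10269 where replicate 5 had 14 at 75.2.

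**Figure D4:**
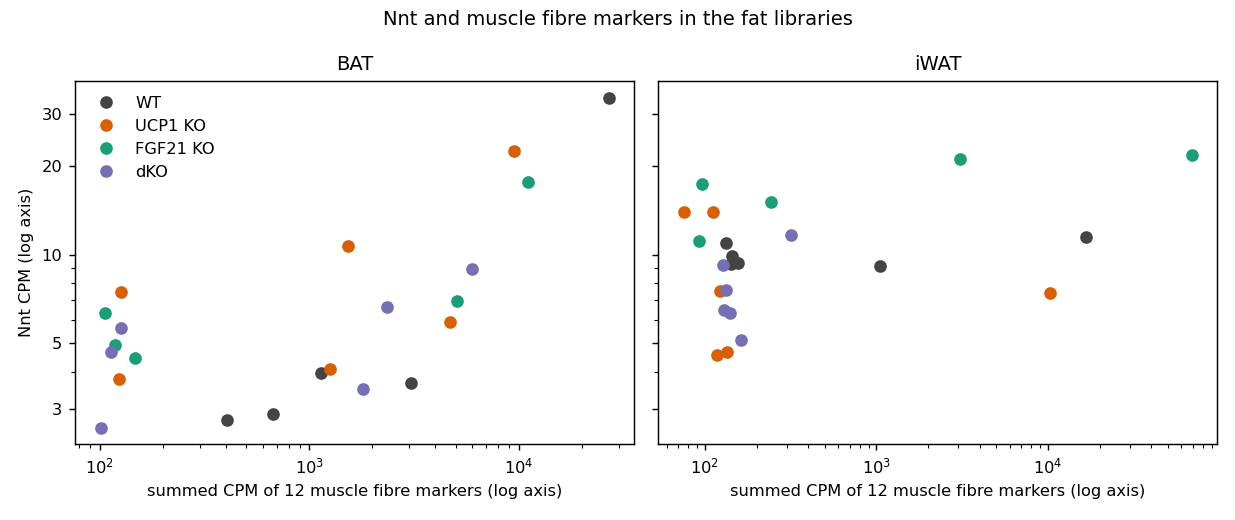
CPM of Nnt against the summed CPM of 12 skeletal muscle fibre markers in each BAT and iWAT library, both on log axes, coloured by genotype. In BAT the 3 libraries with the most fibre RNA have the most Nnt, with WT replicate 5 at 34.2 CPM the highest.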

How the data were processed

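The authors made stranded TruSeq libraries of poly(A) RNA and read them as 100 bp pairs, per the labels' protocols. STAR placed the reads on mm10 and HTSeq counted them per gene, per the submitters' processing notes. Versions and strand setting: not given in the sources used here. What the authors deposited is 1 table of unnormalized counts for each of the 90 libraries. Of the 32765 rows of each table, 66 repeated names were summed (a second Sod1 row held 2.94% to 10.7% of that gene's counts) and 2 rows naming no gene, with at most 0.22% of the counts, were left out, which left 32697. Groups come from the labels. Replicate numbers follow the order of deposit and were not used to pair libraries. Whether that order follows the mice was not tested, and the fit over both fat depots treated its libraries as independent. The labels' protocols give 5 to 6 mice a group without tying libraries to mice, so p-values measure the spread between these samples. Over 210 replicate pairs chi-squared divided by its degrees of freedom was 3.63 to 710 (genes reaching 20 counts in a pair), so no library was a repeat of another.

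Each tissue was fitted over its 4 genotypes with edgeR 4.0.16 (R 4.3.3): TMM, filterByExpr and the robust quasi-likelihood F test. Genes tested were 16032 in BAT, 16751 in iWAT, 15120 in muscle, 18020 in hypothalamus and 17186 in the fit over both fat depots; TMM factors ran from 0.815 to 1.28, 0.821 to 1.38, 0.944 to 1.04 and 0.989 to 1.01 in the 4 tissues. Calls are Benjamini-Hochberg adjusted p under 0.05 over all genes tested. The SE is the log2 fold change over the square root of F. CPM use TMM sizes within a tissue unless another scaling is named. WT tissues were compared on log2(CPM + 0.5) with exact two-sided permutation tests between neighbours in rank. Fits were tested on simulated data with 200 changed genes. Alternatives were DESeq2 1.42.0, RLE factors, no low-count filter, compared groups alone, a pseudocount of 0.1, and each library left out. Added after seeing the data were library totals, a covariate for RNA of other tissue, fits without the libraries high in it (mean log2 CPM over 7 for fibre, 2 for lymphocyte and 3 for choroid plexus markers), and the first Sod1 row alone. The members and gene lists were chosen with earlier results of these data known. Named genes are the members, in each list the called gene with the smallest p per direction, the 3 genes most and least like Nnt, and genes reported to differ between C57BL/6 substrains; Gm7120 was named after its values were seen. An item withheld for evaluation is not reported here. Figures were drawn with matplotlib 3.10.9.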

Additional observations from a re-analysis of the deposited data

Results flagged for a closer look

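Of 144 gene-by-group sets of 4 to 10 libraries, 13 held a library far from its group (Dixon's test at the 95% level); chance flags about 5% of such sets. Nnt gave 4 of them. In BAT, WT replicate 5 was at 34.2 CPM (the others at 2.74 to 3.96), UCP1 KO replicate 1 at 22.5 (3.8 to 10.7) and FGF21 KO replicate 4 at 17.7 (4.45 to 6.98); each was the library of its group with the highest summed muscle fibre markers, whose part was not tested beyond the fits given for Nnt. In hypothalamus, FGF21 KO replicate 4 was at 23.5 (32.3 to 34.4).

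In fat, Gpx1 was at 121 CPM in BAT of dKO replicate 4 (the others at 87.2 to 99.6) and at 316 in iWAT of UCP1 KO replicate 5 (157 to 215). In iWAT, UCP1 KO replicate 2 was low in Sod1, at 342 (442 to 491), and in Prdx5, at 174 (222 to 245). In muscle, FGF21 KO replicate 3 was low in Sod1, at 80.3 (88.2 to 91), and Gpx4, at 189 (208 to 211), and FGF21 KO replicate 1 was high in Txn2, at 140 (124 to 126). In hypothalamus, Prdx5 was low in WT replicate 6, at 117 (125 to 129), and in FGF21 KO replicate 5, at 113 (125 to 128).

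The effect of UCP1 loss differed between iWAT and BAT (edgeR, difference tested in the fit over both depots, iWAT minus BAT on the log2 scale). In UCP1 KO against WT the difference was 0.55 for Sod1, 1.91 for Sod2, 1.60 for Gpx4, 1.55 for Prdx3, 1.03 for Prdx5, 1.23 for Txn2 and 2.09 for Txnrd2. In dKO against FGF21 KO it was 0.55 for Sod1, 1.71 for Sod2, 1.49 for Gpx4, 1.40 for Prdx3, 0.80 for Prdx5, 1.21 for Txn2 and 1.89 for Txnrd2.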

How the results depend on the processing

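No paired analysis was made because the libraries have no replicate number in their labels and no stated tie to a mouse. DESeq2, RLE factors, no low-count filter and the first Sod1 row alone reversed no member's direction among called values. Under library totals in BAT, 5 members turned: Sod1 0.09, Sod2 0.15, Prdx3 0.33, Prdx5 0.23 and Txn2 0.38 in UCP1 KO against WT, and 0.10, 0.20, 0.29, 0.26 and 0.28 in dKO against FGF21 KO; the difference of iWAT minus BAT turned to -0.32 and -0.15 for Sod1 and to -0.58 for Gpx1. Nnt in BAT turned to 1.03 without the libraries high in fibre markers. With compared groups alone 1 member was called in muscle of UCP1 KO, in place of 2. With 1 library left out, members called in UCP1 KO against WT and dKO against FGF21 KO numbered 6 to 7 and 4 to 6 in BAT, 7 to 7 and 6 to 8 in iWAT, 1 to 4 and 1 to 4 in muscle (2 and 3 with all libraries; moved by over 1.5 times without WT replicate 4, UCP1 KO replicate 2 or FGF21 KO replicate 1, and without dKO replicate 6 or FGF21 KO replicates 3, 4 or 5), 6 to 8 in both differences between depots, and 21 to 23 among WT tissue pairs; other counts stayed at 0. Sod1's depot difference lost its call without iWAT WT replicate 1 (0.42) and, in dKO, without any of 8 libraries (0.43 to 0.50). With no low-count filter, calls of dKO against FGF21 KO were lost for Sod2 in BAT (adjusted p = 0.0629, and 0.127 without the libraries high in fibre markers), Gpx4 in iWAT (0.0534) and Txn2 in muscle (0.0538). Nnt in BAT ran, with 1 library left out, from -0.57 to 1.45, and its depot difference from -1.67 to 0.42. Over all genes, calls in muscle went from 1860 to 921 and from 1173 to 1818 with compared groups alone, and in the depot difference of dKO against FGF21 KO from 7270 to 11725 under library totals. DESeq2 moved the sparse FGF21 comparisons: from 4 to 35 (FGF21 KO against WT), 278 to 742 (dKO against UCP1 KO) and 0 to 23 (interaction) in BAT, 6 to 13 (dKO against UCP1 KO) in iWAT, 0 to 3 (the same) in muscle, and in hypothalamus 10 to 16 (UCP1 KO against WT), 1 to 18, 10 to 34 (dKO against FGF21 KO) and 2 to 7. Without the libraries high in fibre markers, calls of dKO against UCP1 KO in BAT went from 278 to 27. Other shifts in sparse comparisons were 4 to 7 (library totals) or 2 (covariate, or without those libraries) for FGF21 KO against WT in BAT, 6 to 3 (no filter) or 10 (covariate) for dKO against UCP1 KO in iWAT, 1 to 0 or 2 (libraries left out) for FGF21 KO against WT in iWAT, and in hypothalamus 1 to 13 (FGF21 KO against WT, groups alone) and, without libraries high in choroid plexus markers, 10 to 6 for both UCP1 comparisons and 1 and 2 to 0 for the others. The cause of these shifts was not tested. Nnt, at 106 to 1389 counts in a BAT library, has the least depth of the members.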

Other observations

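Selenoprotein genes outside the members were looked at after the values of Gpx1, Gpx4 and Txnrd2 in BAT had been seen. Of 17 tested in BAT, 6 were higher and 8 lower in UCP1 KO against WT, and the same numbers in dKO against FGF21 KO (edgeR, where 60.1% and 57.2% of all genes were called). The deiodinase Dio2, which activates thyroid hormone in brown fat, was at 1.76 on the log2 scale in UCP1 KO, Sepn1 at 1.13 and Txnrd1 at 0.64, while Gpx3, the glutathione peroxidase of plasma, was at -0.97, Selo at -0.44 and Txnrd3 at -0.42. In iWAT 6 of 17 were higher and 3 lower in UCP1 KO, with Dio2 at 3.90, Txnrd1 at 0.94 and Sephs2 at 0.82, and Gpx3 at -0.79 and Selm at -0.66; in dKO against FGF21 KO 4 were higher and 2 lower. Dio2 is also among the brown adipocyte markers.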
